A study of Mus musculus with 18 samples.

Results

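Cardiac macrophages were followed in single-cell RNA-seq of wild-type mouse hearts from postnatal day (P) 4 to P28, as wells of ICELL8 nanowell chips in which macrophage transcripts outweighed those of the other stromal cells. Members were chosen by their own UMI counts, so nothing is read from tests of the genes of the rule. A well was kept if it held at least 500 genes and if the unique molecular identifiers (UMIs) of C1qa, C1qb, C1qc, Lyz2, Tyrobp and Fcer1g, summed, exceeded the sums of endothelial, fibroblast and mural marker genes and made up at least 0.3% of its non-mitochondrial UMIs, with 2 or more of the 3 C1q genes detected. In all, 1337 of the 10602 wells with 500 genes on 9 chips met the rule, against 20498 such wells on the 18 chips of the series. These chips held hearts at P4 (2 chips, 30 and 29 macrophage wells), P7 (2 chips, 33 and 26), P14 (2 chips, 41 and 33) and P28 (3 chips named replicates 2, 4 and 6, with 428, 462 and 255).

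All mice were of the Myh6/Esr1-Tomato strain, in which a tamoxifen-inducible Cre driven by the cardiomyocyte gene Myh6 switches on a tdTomato reporter, so macrophages were not the lineage-labelled cells. The study's methods give oral tamoxifen to the mothers of lineage-traced mice in the first days after birth, and no knockdown was applied. The study also describes an additional P28 set without stating tamoxifen, so whether all P28 mice here shared the treatment was not established. Per the labels, ventricle pieces at P4 and P7 were digested with a kit, whereas P14 and P28 hearts were perfused (Langendorff), and cells were then centrifuged to part cardiomyocytes (CMs) from non-cardiomyocytes (NCMs). Digestion therefore changed between P7 and P14 and cannot be told apart from age. The 2 chips of P4, and the 2 of P7, list the same pair of animal names, each P14 chip holds 1 animal, and the P28 chips hold 2, 1 and 2 animals. Differences between chips of P4 or P7 may thus be partly technical, and p-values measure the spread between chips.

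Macrophages seed the heart before birth from yolk sac and fetal liver precursors, and monocytes of the blood add to them after birth. Resident cardiac macrophages clear dying cells and debris, and are known for the surface proteins LYVE1, FOLR2, CD163 and TIMD4, whereas cells more recently derived from monocytes carry CCR2 and, as antigen-presenting cells, MHC class II. The C1q genes used by the rule encode the chains of the complement component that starts the classical pathway.

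The name was checked against macrophage genes that the rule did not use. Csf1r, the receptor for the growth factor CSF1 on which macrophages depend, was found at 274 and 391 CPM on the P4 chips, 601 and 719 at P7, 522 and 1126 at P14 and 767, 507 and 895 at P28 (CPM, the UMIs of a gene relative to all UMIs in the summed wells of a chip, with TMM scaling). On this scale every chip lay far above the fibroblast wells of the same chips, where Csf1r (without TMM scaling) ranged from 1.05 to 3.70 CPM at P4 and from 12.9 to 161 at P28. All 18 further macrophage markers were measured, and their summed level was 0.988 to 1.19% of UMIs at P4, 0.658 to 0.888% at P7, 0.535 to 0.911% at P14 and 0.740 to 0.977% at P28. Dendritic cell markers stayed at or below 0.0144% of UMIs on every chip, and T-cell markers at or below 0.0408%. Among the 6 dendritic markers, Clec9a and Cd209a had no UMI in macrophage wells before P28, while Flt3 and Xcr1 had UMIs at every stage. None of the 6 T-cell genes had a UMI at P14, though some did at P4 and P7. In the P28 wells every gene of both lists had UMIs.

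The rule's own genes chose the wells, so their values are given only as a description. Lyz2, lysozyme, was counted at 861 and 1467 CPM on the P4 chips, 1656 and 1884 at P7, 2989 and 5125 at P14 and 5504, 8339 and 6054 at P28. C1qb was counted at 2264 and 4905 CPM on the P4 chips, 2784 and 3699 at P7, 3757 and 4362 at P14 and 4037, 4407 and 4509 at P28, and its chips overlapped between P4 and the later stages. Of the members, 1054 had UMIs of all 3 C1q genes and 283 of exactly 2. The wells nearest to the 0.3% limit held 0.301, 0.302 and 0.302% inside it and 0.298, 0.297 and 0.296% outside it, and 189 further wells failed only the C1q criterion. In 138 members the macrophage sum was less than 1.5 times the next largest sum. A stricter set (all 3 C1q genes, at least 1% of UMIs and at least 3 times each other sum) kept 790 members. Barcodes name well positions that are reused on each chip, and 122 of the 1215 barcodes among members occurred on more than 1 chip.

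Transcripts of other cells lay in the macrophage wells and moved with stage. Globin and other erythroid genes made up 0.0132 to 0.0289% of UMIs at P4, 0.325 to 0.460% at P7, 17.2 to 22.9% at P14 and 2.69 to 16.4% at P28. Cardiomyocyte markers went the other way, from 1.74 to 2.42% at P4 and 1.48 to 1.8% at P7 to 0.555 to 1.01% at P14 and 0.202 to 0.327% at P28. Granulocyte markers were at most 0.0132% before P28 and 0.127 to 0.550% there. The part of these cells in the differences below was not tested. Summed depth ran from 394877 to 7681798 UMIs per chip, and a single well gave up to 32.1% of a sum. The members of both P4 animals expressed Xist, and those of both P7 animals Y-linked genes, so sex and age cannot be told apart between P4 and P7. Xist marked the members of P14 replicate 1 and of P28 replicates 4 and 6, and Y-linked genes those of P14 replicate 2 and P28 replicate 2. Sex was therefore also unbalanced between P7 and P14 and between P4 and P28.

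Among wells with 500 genes, the share of macrophage wells was several times larger on the 3 P28 chips used here than on the chips of earlier stages, but not on the 3 other wild-type P28 chips. At P4, 2.71% (95% exact Clopper-Pearson interval 1.84 to 3.85%) and 2.27% (1.53 to 3.25%) of wells with 500 genes were macrophage wells. The shares were 2.57 and 2.25% at P7, 3.35 and 5.96% at P14, and 29.2% (26.8 to 31.6%), 30.7% (28.4 to 33.1%) and 24.7% (22.1 to 27.5%) at P28. These 3 chips lay above all 6 earlier ones. The P28 replicates 1, 3 and 5, which entered no comparison, stood at 5.27, 1.13 and 2.42%, within or below the range of the earlier chips. Their make-up differed: 485 of 1100, 45 of 711 and 113 of 703 wells with 500 genes fell into 1 of the 4 stromal classes. On replicates 2, 4 and 6 these were 1342 of 1468, 1366 of 1503 and 699 of 1032. The intervals cover counting error only. Of the wells assigned to 1 of the 4 stromal classes, macrophages made up 3.33 to 3.96% at P4, 2.65 to 2.98% at P7, 7.55 to 13.2% at P14 and 31.9 to 36.5% at P28. The well reports mark P28 replicates 2 and 6 as NCM chips and name no fraction for replicate 4. At P14, wells of CM and NCM fractions shared a chip (17 CM and 24 NCM members on replicate 1, 8 and 25 on replicate 2). Loading, fraction and digestion differ between these chips, and their part in the shares cannot be told apart from age.

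**Figure D1:**
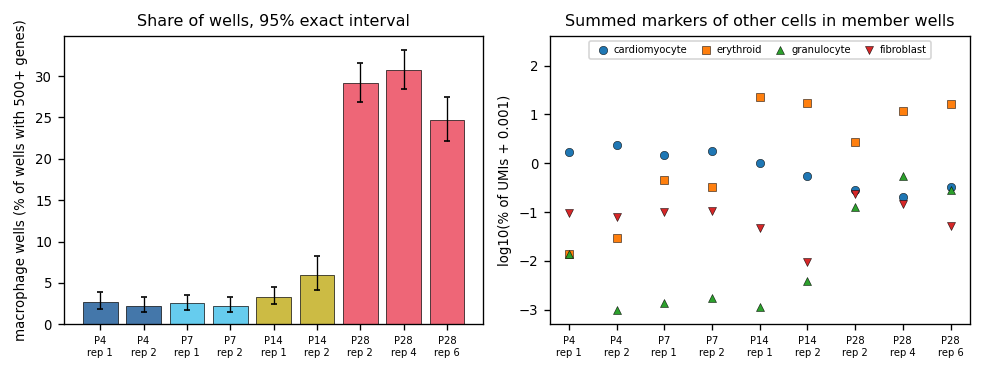
Macrophage wells on each chip as a percent of wells with 500 or more genes (left, bars with 95% exact intervals, linear axis from 0) and summed marker genes of 4 other cell types inside the macrophage wells (right, log10 of percent of UMIs plus 0.001). The 3 P28 chips used here stand at 24.7 to 30.7% and the 6 earlier chips at 2.25 to 5.96%, the other 3 P28 chips (1.13 to 5.27%) are not drawn, and erythroid UMIs peak at P14.

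Between P4 and P28, 28 of 10542 genes passed the threshold (edgeR quasi-likelihood test over sums per chip, Benjamini-Hochberg adjusted p under 0.05), 12 higher and 16 lower, which is 0.266% of the genes tested. At an unadjusted p under 0.05 there were 1177. Among the 12 higher genes, 4 were known from macrophages and not used by the rule: F13a1, Mgl2, Ccl6 and Wfdc17. Of the others, 5 were globin genes or a globin pseudogene (Hba-a1, Hba-a2, Hbb-bs, Hbb-bt and Hba-ps4), Lyz2 was a rule gene and Retnlg marks granulocytes. The 16 lower genes were cardiomyocyte genes, such as Tnni1, Myl7, Myh6, Ttn and Tnnt2, with the growth-restraining imprinted RNA H19 and the predicted gene Gm10800. The median over all genes tested was 0.11 (log2).

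F13a1 encodes the A chain of coagulation factor XIII, which crosslinks fibrin and is made by resident tissue macrophages. It lies at chr13:36867178-37050244 (GRCm38) and was counted at 54.4 and 126 CPM on the P4 chips, 1762 and 616 at P7, 2471 and 1342 at P14 and 1095, 963 and 1339 at P28. Both P4 chips were below all 7 later ones. The increase from P4 to P28 was 3.63 ± 0.60 (log2 difference ± SE, edgeR adjusted p = 0.00825), and it was already seen from P4 to P7, at 3.70 ± 0.62 (log2 difference ± SE, edgeR adjusted p = 0.0353). No further change was called from P7 to P14 (adjusted p = 0.541) or P14 to P28 (adjusted p = 0.624, both edgeR). The P28 call was lost only without P4 replicate 1 (edgeR adjusted p = 0.0741). The P7 call was lost in 8 of 15 alternatives, among them those without P4 replicate 1 (0.162), P4 replicate 2 (0.0596) or P7 replicate 1 (0.198, edgeR adjusted p in each case), and 1 well held 47.7% of the F13a1 UMIs at P7. F13a1 was the only one of the 4 genes called in this earlier interval, where 0.0379% of genes were called.

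Counting wells in place of UMIs also put P4 lowest. After each well was thinned to 1000 UMIs, F13a1 had a UMI in 0 to 6.90% of macrophage wells at P4, 34.6 to 39.4% at P7, 41.5 to 45.5% at P14 and 36.3 to 44.6% at P28. The unthinned shares were 10 to 27.6, 50 to 66.7, 65.9 to 66.7 and 52.5 to 74.5%. Fibroblast wells, which should lack the gene, had it in 0.204 to 0.240% at P4, 0.673 to 1.41% at P7, 0 to 0.595% at P14 and 5.26 to 18.6% at P28, thinned in the same way. The macrophage wells were above this background at P7, P14 and P28 on every chip.

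Mgl2, a galactose-binding C-type lectin of tissue macrophages and dendritic cells, was counted at 6.52 and 0.878 CPM on the P4 chips, 10.6 and 21.5 at P7, 260.1 and 158 at P14 and 366, 193 and 389 at P28. The chips of P4 held 3 UMIs and 1 UMI, and every chip of P14 and P28 lay above all 4 of P4 and P7. Between P4 and P28 it rose by 6.71 ± 0.997 (log2 difference ± SE, edgeR adjusted p = 0.00315), and the call was lost without P4 replicate 2 (edgeR adjusted p = 0.0570). Only 2 of the 59 wells at P4 held a UMI, against 412 of 1145 at P28. From P7 to P14 the difference was 3.69 ± 0.83 and did not pass (edgeR adjusted p = 0.0658).

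Ccl6, a CC chemokine that macrophages make without stimulation, was counted at 213 and 223 CPM on the P4 chips, 718 and 713 at P7, 3247 and 1025 at P14 and 1553, 2149 and 2547 at P28. Each stage up to P14 lay above the one before it, and P14 and P28 overlapped. The rise from P4 to P28 was 3.26 ± 0.53 (log2 difference ± SE, edgeR adjusted p = 0.00825). It was lost without P4 replicate 1 (0.0583) or P4 replicate 2 (0.0760, edgeR adjusted p). In wells thinned to 1000 UMIs, Ccl6 was detected in 13.3 to 17.2% at P4, 15.2 to 19.2% at P7, 33.3 to 53.7% at P14 and 39.0 to 58.7% at P28, against 11.9 to 20.3% of fibroblast wells at P28. The unthinned shares were 30 to 48.3, 26.9 to 36.4, 48.5 to 78.0 and 61.6 to 82.3% in the same order. Wfdc17, a small secreted protein of activated macrophages, was counted at 191 and 219 CPM on the P4 chips, 718 and 1559 at P7, 2339 and 337 at P14 and 2184, 2805 and 3404 at P28. Its P14 chips lay far apart, and all P28 chips were above both P4 chips. It rose by 3.77 ± 0.69 (log2 difference ± SE, edgeR adjusted p = 0.0172), a call lost without P4 replicate 1 (0.104), P4 replicate 2 (0.138), P28 replicate 4 (0.0619) or P28 replicate 6 (0.0997, edgeR adjusted p).

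**Figure D2:**
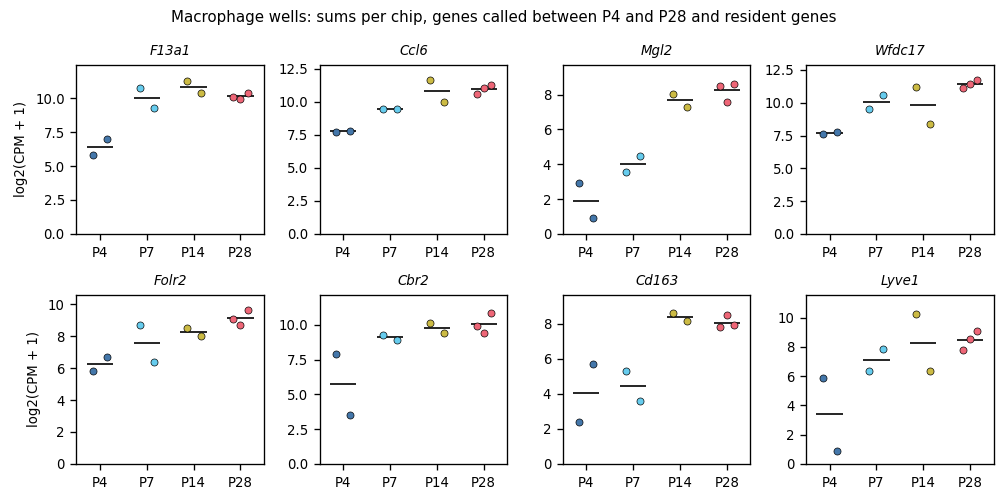
Levels of 8 genes in macrophage wells, summed per chip, as log2(CPM + 1) on linear axes from 0, with 1 point per chip and a bar at the mean of each stage (2 chips at P4, P7 and P14, 3 at P28). F13a1, Ccl6, Mgl2 and Wfdc17 passed the test between P4 and P28, whereas Folr2, Cbr2, Cd163 and Lyve1 did not, although their P28 chips lie above their P4 chips.

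The other resident genes were mostly higher at later stages but did not pass. Of 16 genes on the list, all tested, 1 (F13a1) was called between P4 and P28, 13 were above 0, and their median log2 difference was 1.39. The P28 chips lay wholly above the P4 chips for 8 of the 16, against 23.5% of all genes. Folr2, a folate receptor, was counted at 56.5 and 103 CPM on the P4 chips and 543, 416 and 782 at P28, with P28 above P4 on every chip (2.85 ± 0.69, edgeR adjusted p = 0.109). Cd163, which takes up haemoglobin bound to haptoglobin, stood at 4.35 and 50.03 CPM on the P4 chips, 38.9 and 11.3 at P7, 392 and 289 at P14 and 219, 355 and 238 at P28, so that both P4 and both P7 chips lay under all later ones (3.24 ± 0.86 for P28 against P4, edgeR adjusted p = 0.184). Lyve1, a hyaluronan receptor, stood at 56.5 and 0.878 CPM on the P4 chips, 80.2 and 225 at P7, 1199 and 80.3 at P14 and 219, 374 and 540.3 at P28 and varied widely between chips of P4 and of P14. Timd4, which binds phosphatidylserine on dying cells, was found at 8.70 and 0 CPM at P4 and 35.6, 48.4 and 36.9 at P28. Mrc1, the mannose receptor, overlapped between P4 and P28, at 718 and 576 CPM on the P4 chips and 802, 692 and 1960.5 at P28. Pf4, the chemokine platelet factor 4, also overlapped between P4 and P28, at 3897 and 5862 CPM on the P4 chips and 4245, 4162 and 3819 at P28.

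Of the resident genes, 2 pairs were counted within wells of the P28 chips, Folr2 with F13a1 and with Lyve1. Folr2 was detected in 38.7, 33.5 and 44.0% of thinned wells that held F13a1 (replicates 2, 4 and 6) and in 17.7, 10.9 and 13.1% of those that did not. Lyve1 wells held Folr2 in 42.6, 39.2 and 46.4%, and wells without Lyve1 in 25.1, 16.4 and 21.5%. Lyve1 and Ccr2 shared 0, 0 and 1 well. These shares describe the wells of 3 chips, and wells of a chip are not replicates.

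Of 16 genes of recently recruited monocytes, 14 were tested and none was called between P4 and P28 or between P14 and P28. From P4 to P28, 11 were above 0 and 3 below, with a median log2 difference of 2.19. From P14 to P28, 12 were above 0 and 2 below (median 2.37). The P28 chips lay wholly above the P4 chips for 8 of the 14, against 23.5% of all genes. They lay wholly above the P14 chips for 10 of the 14, against 24.2% of all genes. Some genes of the list had UMIs at P28 only, while others, found at every stage, were not higher at P28. Among the latter was Lgals3, galectin 3, at 546 and 728 CPM on the P4 chips and 130.4, 320.2 and 201 at P28. Fn1, fibronectin, stood at 335 and 93.03 CPM on the P4 chips and 102, 60.6 and 61.4 at P28. Hp, haptoglobin, had no UMI on the 6 earlier chips and 25.9, 80.4 and 120.2 CPM at P28, at least 16.5-fold higher than at P4 with a floor of 3 UMIs per chip (edgeR adjusted p = 0.124). Plac8 was likewise seen only at P28 (13.4, 4.57 and 80.6 CPM), at least 7.18-fold above P4, as was Napsa (at least 4.09-fold). Ccr2 itself did not differ in this way, at 30.4 and 7.90 CPM on the P4 chips, 126 and 1.02 at P7, 0 and 38.98 at P14 and 28.2, 30.9 and 42.3 at P28, and was detected in 0.959 to 3.19% of thinned P28 wells (3.5 to 5.49% unthinned). Hp is also expressed by granulocytes, whose markers rose in the same wells: S100a8 had a UMI in 0 to 3.33% of thinned wells at P4, in none at P7, in 0 to 2.44% at P14 and in 9.61 to 16.3% at P28 (29.2 to 40.4% unthinned), where fibroblast wells reached 4.48 to 9.09%.

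MHC class II genes were detected in far more wells at P28 than before. H2-Ab1, the beta chain of I-A, was counted at 1381 and 0 CPM on the P4 chips, 123 and 90.02 at P7, 76.7 and 167 at P14 and 2002, 2474 and 1335 at P28, and 1 well gave 99.1% of the P4 UMIs. All P28 chips lay above the P7 and P14 chips, and P4 replicate 1 reached the level of P28. Of 10 genes on the list, 8 were tested, and all 8 were above 0 in P28 against P14 (median 1.95) and P28 against P4 (median 2.15), with none called. The P28 chips lay wholly above the P14 chips for 5 of the 8, against 24.2% of all genes. For H2-Ab1 the difference from P14 to P28 was 3.99 ± 1.38 (edgeR adjusted p = 0.446).

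The chips of P28 differed in how many wells held these genes. In wells thinned to 1000 UMIs, H2-Aa, H2-Ab1 or H2-Eb1 was found in 0 to 6.67% of macrophage wells at P4, 3.03 to 3.85% at P7 and 2.44 to 6.06% at P14. At P28 the share was 47.7% on replicate 2, 53.9% on replicate 4 and 19.9% on replicate 6 (41.6 to 87.6% unthinned). Fibroblast wells gave 47.0, 22.3 and 12.4% on the same chips, so the share on replicate 2 was level with that background, while those on replicates 4 and 6 exceeded it. In summed level, H2-Ab1 stood at 1272 to 2609 CPM in macrophage wells and 104 to 449 CPM in fibroblast wells at P28 (without TMM scaling). F13a1 and MHC class II were also counted within the thinned P28 wells. On replicates 2, 4 and 6, 37.1, 55.0 and 14.3% of wells with F13a1 held an MHC class II UMI. Of those without F13a1, 56.3, 53.2 and 23.1% did. Given the background in fibroblast wells, these shares cannot show whether the same cells expressed both.

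**Figure D3:**
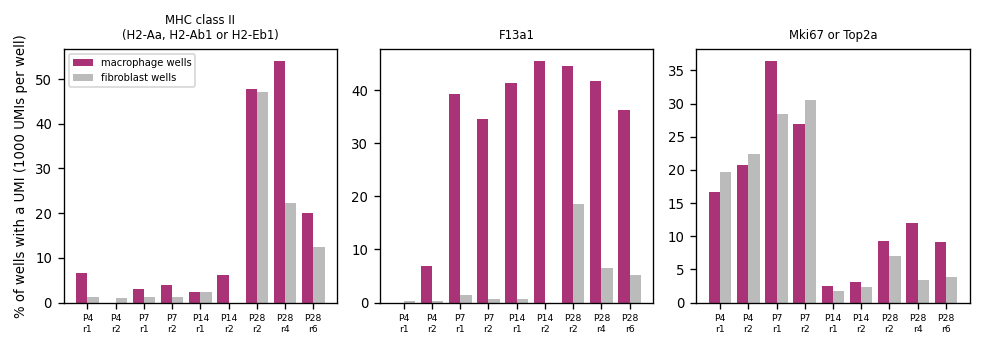
Percent of macrophage and fibroblast wells with at least 1 UMI of MHC class II genes, F13a1, or Mki67 or Top2a, on each chip (r, replicate), after each well was thinned to 1000 UMIs (bars from 0). F13a1 separates macrophage from fibroblast wells from P7 on, the MHC class II shares of P28 replicate 2 are level, and the cycling genes drop in both classes at P14.

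At P14 against P7 the test called 29 genes, of which 18 were higher and 11 lower (0.275% of genes tested), and 5 of the higher ones were globin genes or a globin pseudogene. Of the 11 lower genes, 6 (Hells, Hist1h2ap, Top2a, Mcm6, Pclaf and Asf1b) are known from DNA replication and chromosome duplication, a grouping made after their values were seen. Top2a, topoisomerase II alpha, which untangles sister chromosomes, was counted at 400.2 and 171 CPM on the P4 chips, 332 and 136 at P7, 5.0 and 9.17 at P14 and 101, 70.7 and 54.7 at P28. Both P14 chips lay under all other chips, and P28 lay between P14 and P7. The difference from P7 to P14 was -5.06 ± 0.91 (log2 difference ± SE, edgeR adjusted p = 0.0188). Mcm6, a subunit of the replicative helicase, was counted at 194 and 78.99 CPM on the P4 chips, 304 and 197 at P7, 6.67 and 4.59 at P14 and 24.2, 15.3 and 66.8 at P28, again lowest on both P14 chips, with a difference of -5.45 ± 1.07 (log2 difference ± SE, edgeR adjusted p = 0.0409). Hells, a chromatin remodeller of dividing cells, had no UMI at P14 and 162 and 154 CPM at P7, at least 26.6-fold higher (edgeR adjusted p = 0.0103), and returned to 11.6, 25.3 and 23.6 CPM at P28. Pclaf, which binds the sliding clamp PCNA, also had none at P14, against 157 and 121 CPM at P7, at least 23.4-fold (edgeR adjusted p = 0.0409). Asf1b, a histone chaperone, had 2 UMIs at P14 in all, and the ratio of P7 to P14 was 97.4 (exact counting interval 26.7 to 807, edgeR adjusted p = 0.0409). Reads of near-identical copies can be shared among histone, globin and class I MHC genes, so their values are uncertain. The replication-dependent histone gene Hist1h2ap fell, with a difference of -4.04 ± 0.71 (log2 difference ± SE, edgeR adjusted p = 0.0169), from 699 and 459 to 31.7 and 38.98 CPM.

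Across the cell cycle list of 22 genes, all tested, 2 (Top2a and Mcm6) were called lower from P7 to P14, 19 were below 0 and the median was -2.54, against -0.06 over all genes. The P14 chips lay wholly below the P7 chips for 14 of the 22, against 21.8% of all genes. Mki67, a marker of cycling cells, went from 381 and 230.2 to 8.34 and 103 CPM (edgeR adjusted p = 0.197). From P14 to P28, 14 of the 22 were above 0 and none was called. From P4 to P28, 20 were below 0 with a median of -1.91, and none was called, with P28 wholly below P4 for 12 of the 22 against 12.2% of all genes. A UMI of Mki67 or Top2a was found in 16.7 to 20.7% of thinned macrophage wells at P4, 26.9 to 36.4% at P7, 2.44 to 3.03% at P14 and 9.16 to 12% at P28. Fibroblast wells gave 19.7 to 22.4, 28.5 to 30.5, 1.79 to 2.33 and 3.40 to 7.05% in the same order, so the drop at P14 was seen in both classes. Unthinned, the macrophage shares were 36.7 to 69.0, 69.2 to 69.7, 9.09 to 9.76 and 19.6 to 27.8%.

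These calls rest on few libraries. Top2a passed in 7 of 15 alternatives and Mcm6 in 5 of 15, with no change of direction. Without P7 replicate 1 the edgeR adjusted p was 0.127 for Top2a, 0.128 for Mcm6, 0.123 for Pclaf, 0.0930 for Asf1b and 0.118 for Hist1h2ap. Without P14 replicate 1 it was 0.0571 for Top2a, 0.0594 for Mcm6, 0.0664 for Pclaf, 0.0737 for Asf1b and 0.0554 for Hist1h2ap, and without P14 replicate 2 it lay between 0.0623 (Top2a) and 0.0977 (Mcm6). Pclaf and Asf1b were also lost without P7 replicate 2 (0.0552 and 0.0845, edgeR adjusted p). Hells lost its call in 5 of its 15 alternatives, among them the stricter set of members and wells thinned to at most 5000 UMIs. None of the 5 was a fit without 1 of the chips. In wells with under 5% erythroid UMIs, Top2a was at an edgeR adjusted p of 0.0575, with a log2 difference of -4.68.

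The promoters of Top2a, Mcm6, Asf1b, Pclaf and Hells are shown because they dropped together and because replication genes are known to carry CCAAT boxes, E2F sites and CHR elements. Each run is the 250 bases before the RefSeq start (GRCm38.p6), 5′ to 3′ on the gene's strand, with every match in capitals to CCAAT, to TTTGAA (the CHR element) or to TTTGGCGC, TTTCGCGC or TTTCCCGC (forms of the E2F site), on either strand and overlaps included. The windows are chr11:99024190-99024439, minus strand, for Top2a, chr1:128359706-128359955, minus strand, for Mcm6, chr8:83955444-83955693, plus strand, for Asf1b, chr9:65890073-65890322, plus strand, for Pclaf, and chr19:38930740-38930989, plus strand, for Hells.
Top2a: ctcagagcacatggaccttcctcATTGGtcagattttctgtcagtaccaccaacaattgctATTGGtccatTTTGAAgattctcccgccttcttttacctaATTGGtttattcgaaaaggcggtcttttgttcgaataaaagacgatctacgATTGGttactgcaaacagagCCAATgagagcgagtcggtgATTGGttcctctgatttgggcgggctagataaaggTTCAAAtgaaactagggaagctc
Mcm6: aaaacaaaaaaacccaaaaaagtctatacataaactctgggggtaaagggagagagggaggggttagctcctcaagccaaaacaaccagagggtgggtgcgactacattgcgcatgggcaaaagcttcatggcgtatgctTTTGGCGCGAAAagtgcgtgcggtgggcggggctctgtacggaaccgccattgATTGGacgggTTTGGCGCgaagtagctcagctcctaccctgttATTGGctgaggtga
Asf1b: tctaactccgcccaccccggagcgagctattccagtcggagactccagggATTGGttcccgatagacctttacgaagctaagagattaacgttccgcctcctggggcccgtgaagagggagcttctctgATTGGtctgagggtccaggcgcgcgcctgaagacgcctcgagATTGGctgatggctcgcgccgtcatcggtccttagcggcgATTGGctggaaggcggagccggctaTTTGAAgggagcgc
Pclaf: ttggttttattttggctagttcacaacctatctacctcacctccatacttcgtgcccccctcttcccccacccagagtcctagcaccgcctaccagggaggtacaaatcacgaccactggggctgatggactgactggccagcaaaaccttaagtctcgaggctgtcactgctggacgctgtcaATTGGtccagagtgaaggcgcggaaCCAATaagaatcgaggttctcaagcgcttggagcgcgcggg
Hells: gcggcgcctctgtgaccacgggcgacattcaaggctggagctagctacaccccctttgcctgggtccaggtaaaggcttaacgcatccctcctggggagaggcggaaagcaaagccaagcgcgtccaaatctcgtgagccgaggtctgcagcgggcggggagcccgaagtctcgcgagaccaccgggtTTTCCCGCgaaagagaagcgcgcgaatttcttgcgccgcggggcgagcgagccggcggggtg

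Top2a held 6 CCAAT and 2 TTTGAA, Mcm6 2 CCAAT, 2 TTTGGCGC and 1 TTTCGCGC, Asf1b 4 CCAAT and 1 TTTGAA, Pclaf 2 CCAAT and Hells 1 TTTCCCGC. Of all 32817 promoter windows of this length, 33.8% held CCAAT, 16% TTTGAA, 0.417% TTTGGCGC, 0.256% TTTCGCGC and 0.893% TTTCCCGC. Of the cell cycle list, 19 of 22 genes had a window, and 17 of them held CCAAT and 9 TTTGAA in at least 1 window. Counted per gene in the same way, 37.5% of all 26994 symbols held CCAAT and 18.3% TTTGAA. A match describes the letters only.

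**Figure D4:**
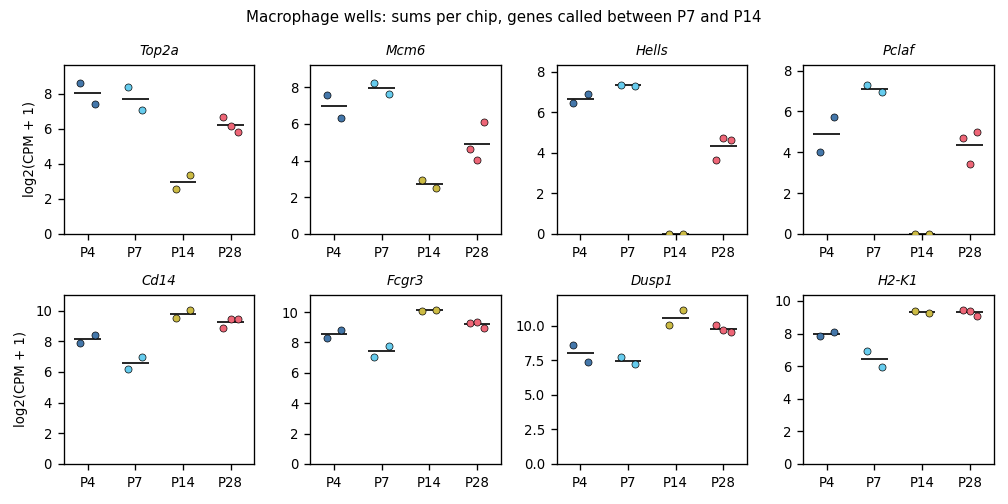
Levels of 8 genes called between P7 and P14 in macrophage wells, summed per chip, as log2(CPM + 1) on linear axes from 0, with 1 point per chip and a bar at the mean of each stage. Top2a, Mcm6, Hells and Pclaf are lowest at P14, and Cd14, Fcgr3, Dusp1 and H2-K1 are lowest at P7 or overlap there with P4.

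Cd14, Fcgr3, H2-K1 and Dusp1 rose over the same step. Cd14 and Fcgr3 were the 2 called of 18 macrophage identity genes, of which 12 were above 0 and 6 below. Cd14, the co-receptor that binds bacterial lipopolysaccharide, was counted at 239 and 332 CPM on the P4 chips, 70.8 and 127 at P7, 743 and 1034 at P14 and 475, 702 and 704 at P28. Both P7 chips were the lowest and both P14 chips the highest of all. It rose by 3.17 ± 0.57 (log2 difference ± SE, edgeR adjusted p = 0.0188). Fcgr3, an activating receptor for antibody Fc, had the same order, at 318 and 444 CPM on the P4 chips, 132 and 219 at P7, 1062 and 1133 at P14 and 619, 660.2 and 498 at P28, and rose by 2.64 ± 0.53 (log2 difference ± SE, edgeR adjusted p = 0.0409). H2-K1, a class I MHC heavy chain, stood at 231 and 269 CPM on the P4 chips, 123 and 60.4 at P7, 668 and 612 at P14 and 688, 674 and 549 at P28, lowest at P7 and overlapping between P14 and P28, and rose by 2.81 ± 0.56 (log2 difference ± SE, edgeR adjusted p = 0.0409). It rose as well in fibroblast wells, by 3.12 (edgeR adjusted p = 0.0136), and in endothelial wells, by 2.53 (edgeR adjusted p = 0.00975). Dusp1, a phosphatase that switches off stress kinases and is an immediate early gene, stood at 385 and 168 CPM on the P4 chips, 209 and 147 at P7, 1027 and 2218 at P14 and 1079, 803 and 741 at P28 and rose by 3.19 ± 0.59 (log2 difference ± SE, edgeR adjusted p = 0.0230).

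The 4 genes were lost from the calls without P7 replicate 1 (Cd14 0.188, Fcgr3 0.218, H2-K1 0.127, Dusp1 0.127), without P7 replicate 2 (Cd14 0.0616, Fcgr3 0.0961, H2-K1 0.188, Dusp1 0.133) and without P14 replicate 2 (Cd14 0.0654, Fcgr3 0.0847, H2-K1 0.0703, Dusp1 0.0977), and H2-K1 also without P14 replicate 1 (0.0534, all edgeR adjusted p). With wells of under 5% erythroid UMIs the edgeR adjusted p was 0.0637 for Cd14, 0.0957 for Fcgr3, 0.0988 for H2-K1 and 0.0524 for Dusp1, with log2 differences of 2.88, 2.33, 2.43 and 3.001. Over all 15 alternatives the log2 differences were at least 2.78 for Cd14, 2.198 for Fcgr3, 2.03 for H2-K1 and 2.46 for Dusp1. In thinned wells Dusp1 was detected in 6.06 to 11.5% at P7 and 39.0 to 54.5% at P14 (42.4 to 50 and 80.5 to 90.9% unthinned), and in 7.17 to 9.09% and 9.30 to 18.5% of fibroblast wells.

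Among immediate early and heat shock genes, 19 of 21 were above 0 from P7 to P14 and 1 (Dusp1) was called, with a median of 0.98, and the P14 chips lay wholly above the P7 chips for 13, against 17.8% of all genes. Fos was counted at 504 and 322 CPM on the P7 chips and 935 and 1667 at P14 and Jun at 297 and 259.8 CPM on the P7 chips and 408 and 695 at P14, without passing (edgeR adjusted p = 0.194 and 0.342). The digestion differed over this step. Among 19 genes of complement and scavenging, 18 were tested, 16 were above 0 with a median of 1.71, and none was called. The P14 chips lay wholly above the P7 chips for 12 of the 18, against 17.8% of all genes. Of 15 genes of inflammatory cytokines and NF-kB, 14 were tested and 10 were above 0 with a median of 1.67, and none was called.

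Other genes called from P7 to P14 were outside these groups. Hmgn3, a nucleosome-binding protein, had 627 and 275 CPM at P7 and 1.67 and 0 CPM at P14 (1 UMI in all), a ratio of 454 with an exact counting interval of 81.3 to 17959 (edgeR adjusted p = 0.00192), and it kept its call in 14 of 15 alternatives. It stood at 50.02 and 29.8 CPM on the P4 chips and 28.4, 20.6 and 22.3 at P28, so P7 was the highest stage, and 1 well held 62.8% of its UMIs there. Tsc22d3, a glucocorticoid-induced leucine zipper gene, was counted at 124 and 14.9 CPM on the P4 chips, 30.7 and 19.4 at P7, 1089 and 759 at P14 and 630.3, 451 and 888 at P28 and rose by 5.20 ± 0.85 (log2 difference ± SE, edgeR adjusted p = 0.00794), although not without P7 replicate 1 (0.0704) or P7 replicate 2 (0.0646, edgeR adjusted p). H19 stood at 644 and 290.5 CPM on the P4 chips, 541 and 748 at P7, 25.01 and 2.29 at P14 and 48.7, 52.6 and 37.8 at P28 and fell, with a difference of -5.49 ± 0.87 (log2 difference ± SE, edgeR adjusted p = 0.00728). Cbx5, a heterochromatin protein, fell, with a difference of -4.67 ± 0.96 (log2 difference ± SE, edgeR adjusted p = 0.0480), and Ube2l6, which conjugates ISG15, rose by 6.94 ± 1.39 (log2 difference ± SE, edgeR adjusted p = 0.0414), from 2.36 and 2.05 to 308 and 243 CPM. Jdp2, a repressor of AP-1, had 2 UMIs at P7, and P14 was 116 times higher (exact counting interval 31.6 to 970.1, edgeR adjusted p = 0.0480). Leaving out P7 replicate 1 or 2 also ended the calls of Ube2l6 (0.167 and 0.138) and Jdp2 (0.188 and 0.154, edgeR adjusted p), as did leaving out P14 replicate 1 for Jdp2 (0.0766). Leaving out any 1 of the 4 chips ended the call of Cbx5, with an edgeR adjusted p up to 0.160.

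Few genes separated P28 from P14. The test called 10, 2 higher and 8 lower (0.0949% of genes tested). The higher ones were the granulocyte genes Retnlg and S100a8. The lower ones were the cardiomyocyte genes Myh6, Tnni3 and Myl3 and 5 predicted genes annotated as pseudogenes, so none was a macrophage gene. Pseudogenes as a whole made up 11.2 to 13.1% of UMIs at P7, 13.7 to 22.5% at P14 and 9.45 to 11.3% at P28. Ifi27l2a, an interferon-induced gene, was counted at 885 and 947 CPM on the P14 chips and 2422, 1833 and 3371 at P28 without passing (edgeR adjusted p = 0.428), and 14 of 16 interferon-stimulated genes were above 0 (median 1.17, none called). Il1b, which encodes interleukin 1 beta, stood at 122 and 354 CPM on the P4 chips, 31.9 and 31.7 at P7, 1.67 and 11.5 at P14 and 198, 102 and 135 at P28, lowest at P14 (edgeR adjusted p = 0.109 for P28 against P14). The chemokine Ccl8 had no UMI at P7 or P14 and 25.9, 319.6 and 60.5 CPM at P28, at least 22.8-fold above P14 (edgeR adjusted p = 0.228).

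**Figure D5:**
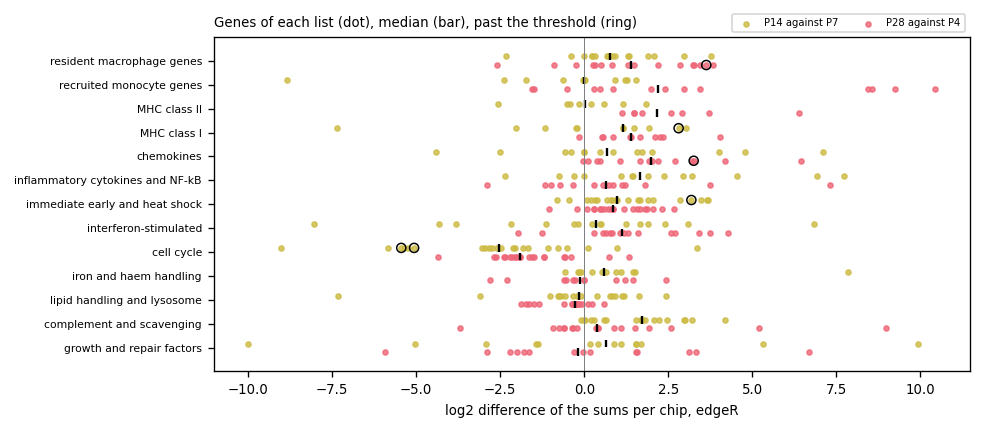
Log2 difference of each gene (dot) by list for P14 against P7 and P28 against P4 (edgeR, sums per chip), with the median of each list (bar) and genes past the threshold (ring). Cell cycle genes lie mostly to the left in both comparisons, MHC class II and recruited genes to the right at P28, and dots of genes with no UMI in 1 stage depend on the prior count of the fit.

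From P4 to P28, the other lists held 1 call. Chemokines were above 0 in 13 of 14 tested, with Ccl6 the 1 called (median 1.98). Class I MHC genes were above 0 in 10 of 11 (median 1.39, none called), with B2m at 1344 and 1064 CPM on the P4 chips and 2653, 4367 and 2450.4 at P28. Genes of lipid handling and the lysosome were below 0 in 15 of 18 tested (median -0.29, none called), with Ctsd, the protease cathepsin D, at 698 and 741 CPM on the P4 chips and 294, 213 and 339 at P28. Apoe, the lipid carrier apolipoprotein E, overlapped between these stages, at 31242 and 40984 CPM on the P4 chips and 26622, 23815 and 45820.1 at P28 (edgeR adjusted p = 0.898). Iron and haem genes were split, 4 above and 8 below 0, with the iron exporter Slc40a1 at 200.1 and 620.5 CPM on the P4 chips and 57.97, 56.2 and 61.9 at P28. Of 14 growth and repair factors tested, 6 were above and 8 below 0, and Spp1, osteopontin, stood at 163 and 48.3 CPM on the P4 chips, 14.2 and 97.2 at P7, 0 and 0 at P14 and 3.53, 0.864 and 0.445 at P28 (edgeR adjusted p = 0.0862 for P28 against P4).

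Transcripts of cardiomyocytes passed the test in macrophage wells as well. Myl7, the atrial myosin light chain, was counted at 474 and 1015 CPM on the P4 chips, 2.36 and 4.09 at P7, 0 and 0 at P14 and 0.504, 4.57 and 3.12 at P28 and was lower at P7 than at P4, with a difference of -7.81 ± 1.11 (log2 difference ± SE, edgeR adjusted p = 0.0109), a call lost without P4 replicate 2 (0.135) or P7 replicate 1 (0.177, edgeR adjusted p). Tnni1, the fetal form of troponin I, stood at 385 and 501 CPM on the P4 chips, 125 and 505 at P7, 5.0 and 0 at P14 and 0.504, 0.494 and 0.890 at P28 and fell from P7 to P14, with a difference of -6.80 ± 1.078 (log2 difference ± SE, edgeR adjusted p = 0.00728). Myl7 was high on the P4 chips and Tnni1 on those of P4 and P7, where cardiomyocyte markers as a list were also highest. From P4 to P7, where Myl7 fell, 4 of the 8 genes of that list were above 0 and 4 below, with a median of -0.06 and none called. H19 was also lower at P28 than at P4, with a difference of -3.33 ± 0.65 (log2 difference ± SE, edgeR adjusted p = 0.0304), and this was lost without P4 replicate 1 (0.216) or any P28 chip (up to 0.281, edgeR adjusted p).

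Changes in macrophage wells were compared with those of fibroblast and endothelial wells on the same chips. The 4 genes that rose to P28 in macrophage wells also rose in fibroblast wells, from far lower levels. F13a1 went from 1.05-6.63 CPM at P4 to 61.3-207 CPM at P28 there (4.95 ± 1.02, edgeR adjusted p = 0.0167). The difference of the 2 changes was -1.33 ± 0.96 (edgeR adjusted p = 0.791). For Ccl6 it was -3.07 ± 0.56 (edgeR adjusted p = 0.125), for Mgl2 0.74 ± 1.86 (0.963) and for Wfdc17 -4.65 ± 0.84 (0.125). No greater rise in macrophage wells was thus shown for any of the 4. C1qb, a rule gene, went in fibroblast wells from 12.4-27.8 to 127-467 CPM, on chips where macrophage wells were more numerous, and the part of free RNA in these levels was not tested.

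Only 1 gene of 15629 (0.0064%) differed between macrophage and fibroblast wells in its change from P4 to P28. Between macrophage and endothelial wells, 7 of 15465 (0.0453%) differed. Of these 7, 4 were rule genes, whose level in macrophage wells the rule itself holds up, and nothing is read from them. The others were Apoe, Cd300ld and Ms4a7. The fibroblast comparison gave Fcrls, an Fc receptor-like gene of macrophages and microglia. Fcrls, Apoe, Cd300ld and Ms4a7 each had the smaller change in macrophage wells. Fcrls in macrophage wells overlapped between the stages, at 581 and 374 CPM on the P4 chips and 312, 223 and 703 at P28, and in fibroblast wells it went from 1.4-1.91 to 20.9-57.1 CPM. The median difference over all genes was 0.63 and 0.53 (log2) in the 2 comparisons.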

How the data were processed

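UMI counts per gene and well were deposited by the authors as 1 matrix per chip, as raw counts with no normalization. Per the labels and the study's methods, polyadenylated RNA was read on ICELL8 chips and aligned to mm10 with STAR 2.5.2b, and reads were assigned to genes with featureCounts (Subread 1.4.6-p1). Symbols were matched to 34112 of 35017 non-mitochondrial Ensembl genes (GENCODE vM21, GRCm38). Control wells and wells under 500 genes were left out, doublets were not called, and members were chosen by the rule given above. The members and gene lists were chosen with earlier results of these data known. Genes were named from the lists and, for each stage comparison, from up to 8 called genes per direction (lowest p first) whose chips did not overlap, leaving out predicted genes, pseudogenes, genes without a symbol and genes of the rule, of sex and of other cells. Asf1b, Cbx5 and the genes given as other calls were named after their values were seen. Some genes that the rule names are not reported here.

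UMIs of the members were summed per chip (9 sums, 394877 to 7681798 UMIs) and tested over 4 stages with edgeR 4.0.16 (TMM, filterByExpr, quasi-likelihood test, 5 residual degrees of freedom) in R 4.3.3, with Benjamini-Hochberg adjustment at 0.05. Differences between classes of wells were tested as an interaction with chip as a block. Alternatives were DESeq2 1.42.0, sums per animal, stricter members, capped or filtered wells, no filter on low counts, fits of fewer stages and leaving out each chip. Same-numbered chips did not deviate together (r of -0.0047, -0.027 and 0.0070 over 8652 genes). Shares of wells used wells thinned to 1000 UMIs, leaving out shallower ones. Of 3 control wells with 500 genes on the 12 wild-type chips, 2 met the marker rule.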

Additional observations from a re-analysis of the deposited data

Results flagged for a closer look

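For 4 genes the change from P4 to P28 differed between macrophage wells and another class of wells on the same chips, by a test of the difference itself (edgeR, chip as a block), in each case with the smaller change in macrophage wells. For Fcrls the difference from fibroblast wells was -4.65 ± 0.61 (log2 ± SE, edgeR adjusted p = 0.0465), lost without P4 replicate 1 (0.178), P4 replicate 2 (0.289) or P28 replicate 2 (0.179, edgeR adjusted p). For Apoe the difference from endothelial wells was -1.72 ± 0.26 (edgeR adjusted p = 0.0254), and endothelial wells went from 1224-1252 to 2005-4621 CPM. It was -7.76 ± 1.20 for Cd300ld and -5.38 ± 0.83 for Ms4a7 (edgeR adjusted p = 0.0254 for both). The Apoe call was lost without P4 replicate 1 (0.0677), P4 replicate 2 (0.476) or P28 replicate 6 (0.0568), that of Cd300ld without P4 replicate 1 (0.0762), P4 replicate 2 (0.356), P28 replicate 2 (0.0792) or P28 replicate 4 (0.0890), and that of Ms4a7 without P4 replicate 1 (0.0762), P28 replicate 2 (0.0792) or P28 replicate 4 (0.0890, all edgeR adjusted p).

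On the 3 other P28 chips, which no comparison used, 83 wells met the rule (58, 8 and 17).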

How the results depend on the processing

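Over 50 comparisons of named genes and 687 alternatives, 440 kept their direction and side of the threshold, 247 kept only their direction and 0 reversed. Most of these genes were named because they were called with chips that did not overlap. Leaving out a chip could thus hardly reverse them, and the lack of reversals is no separate support. Counts of genes called moved more. With DESeq2 they were 268 for P7 against P4 (4 with edgeR), 793 for P14 against P7 (29), 67 for P28 against P14 (10), 223 for P28 against P4 (28), and 93 and 104 for the differences from fibroblast (1) and endothelial wells (7). With no filter on low counts they were 65, 184, 47 and 119, and with sums per animal 7 (P7 against P4), 20 (P28 against P14) and 72 (P28 against P4). Wells thinned to at most 5000 UMIs gave 48 (P14 against P7), 18 (P28 against P14) and 45 (P28 against P4), a fit of only the stages compared 6 (P14 against P7) and 61 (P28 against P4), wells under 5% erythroid UMIs 13 (P14 against P7, 5 higher and 8 lower), and stricter members 5 (fibroblast wells). With P4, P7 and P14 alone, a replicate block gave 7 for P7 against P4 and 15 for P14 against P7, and the same stages with no replicate block 9 for P14 against P7. Without 1 chip at a time the counts were 2 to 14, 8 (without P7 replicate 1) to 84 (without P14 replicate 1), 2 to 16, 13 to 38, 0 to 12 and 1 to 7. Where an arm was left with 1 chip, it was assumed to vary like the others. The causes were not tested.

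In wells thinned to 500 in place of 1000 UMIs, the mean share with F13a1 was 23.7, 32.5 and 28.2% at P7, P14 and P28 (37.0, 43.5 and 40.9%), with Ccl6 11.9% at P4 and 35.6% at P28 (15.3 and 46.6%), with MHC class II 1.52% at P7 (3.44%), and with Mki67 or Top2a 13.6, 17.9, 1.52 and 6.5% from P4 to P28 (18.7, 31.6, 2.73 and 10.2%). Leaving out wells over 1% cardiomyocyte UMIs was not run, since 4 wells were left at P4. Few chips, few wells before P28 and 1 to 2 animals per chip limit every comparison.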
